A study of Homo sapiens with 6 samples.

Results

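The TRIM genes encode the tripartite motif proteins, and their levels were followed in MM.1R, a cell line from human multiple myeloma that does not respond to glucocorticoids. Members were all genes whose symbol is TRIM followed by a digit and that had a probe set naming that gene alone, which gave 60 of the 17534 genes measured. A tripartite motif protein carries a RING finger, 1 or 2 B-boxes and a coiled coil, followed in most members by a further domain that sets what the protein binds. The RING finger recruits a ubiquitin-loaded E2 enzyme, so most members are ubiquitin ligases. Several are induced by interferon and act against viruses, and several others act on p53 or its regulator MDM2.

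Expression had been measured on 6 Affymetrix PrimeView arrays, on which 1 or more probe sets read each gene near its 3' end. On 3 arrays the cells carried shCtrl, a control short hairpin construct brought in by infection (control), and on the other 3 they had received epirubicin hydrochloride (epirubicin), an anthracycline that poisons topoisomerase II and breaks DNA. Since the labels give no vector for the drug-treated cells, the effects of drug and vector cannot be told apart, and no dose or time is stated there. Replicates of a group may be technical, as no label speaks of separate cultures, and the p-values then cover only the spread between these arrays. Values are log2 expression, and differences are epirubicin minus control. A gene was called higher or lower at an adjusted p under 0.05 in limma and a fold change of at least 1.3, and was counted as expressed where its mean over the 6 arrays exceeded 5.54, the median of all values.

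All 10 plasma cell markers listed lay above that median, and their mean level was 11.32 to 11.33 on the control arrays and 11.14 to 11.16 on the epirubicin arrays. Of these 10, 2 were lower, CD38 (-1.18, SE 0.05) and IRF4 (-0.49, SE 0.03), and 0 higher. Beside 3.33% lower and 6.00% higher over all expressed genes, this count describes the markers named. Of 7 myeloid and 7 stromal markers, 0 lay above the median of all values and 0 were called. Of 7 T and NK cell markers, 1 lay above it, NKG7, and 0 were called. Of 4 markers of plasmacytoid dendritic cells, the main interferon-producing cells, 1 was called higher, TCF4, beside 4.36% of all genes. CLEC4C stood at 2.79 in control and 2.84 in epirubicin arrays. The mean level of these 4 was 5.46 to 5.50 on control and 5.59 to 5.69 on epirubicin arrays, and their part in the results was not tested. Array medians ran from 5.52 to 5.57.

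Of the 60 TRIM genes, 4 were higher with epirubicin, TRIM2, TRIM38, TRIM22 and TRIM32, and 2 were lower, TRIM59 and TRIM14. Over all genes 4.36% were called higher and 2.14% lower, and the members' counts lay near these shares, so they are no result about the family as a whole. The family's median log2 fold change was 0.05, against 0.02 over all genes, and its members ran from -0.59 to 1.21. Among the 32 expressed members, 3 were higher, 2 lower and 27 neither, beside 6.00% higher and 3.33% lower over all 9935 expressed genes. At any fold, 13 of the 60 members and 11 of the 32 expressed ones had an adjusted p under 0.05, against 29.1% of all genes and 44.1% of all expressed genes. The 28 members below the median of all values held 1 call, TRIM2.

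**Figure D1:**
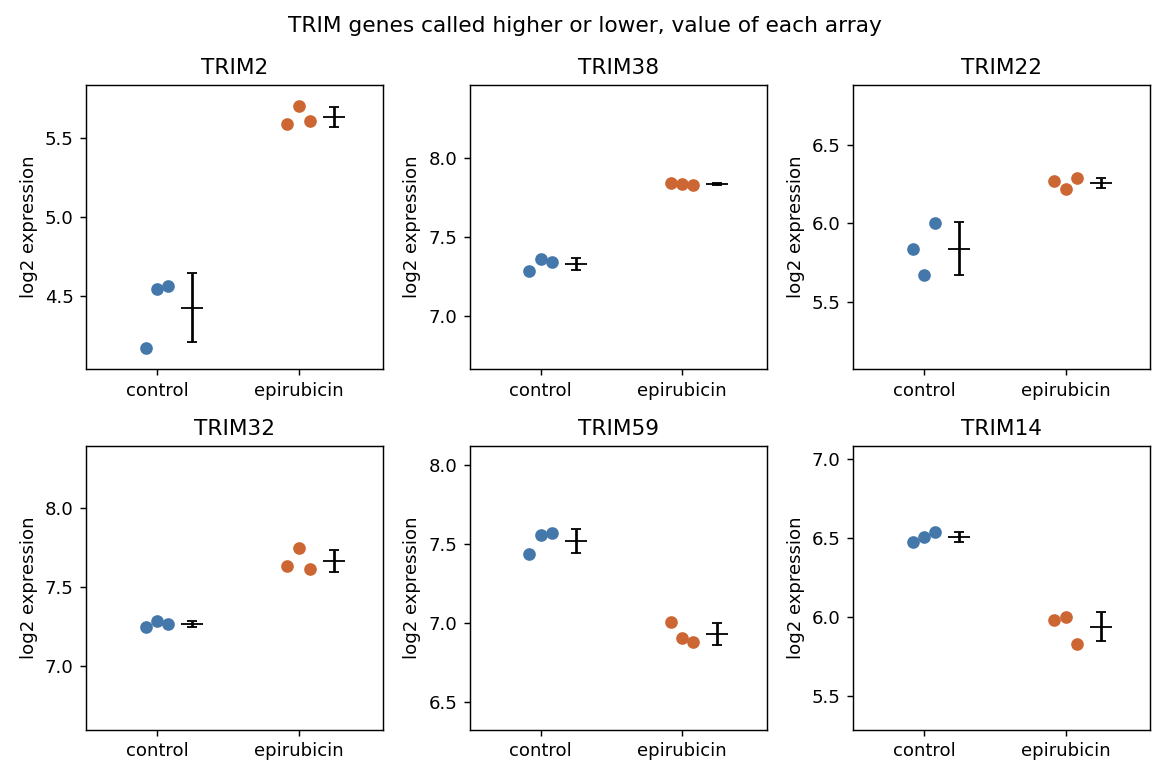
Log2 expression (vertical axis, each panel spanning the same width of log2 units) of the 6 TRIM genes called, with 1 point per array, control on the left and epirubicin on the right, and the mean with its SD (n = 3) beside the points. In every panel the 3 epirubicin arrays lie beyond the 3 control arrays, with the widest gap in TRIM2 (1.21 between means).

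TRIM22 encodes an interferon-induced antiviral protein and has been described as a direct target of p53. It rose on all 6 of its probe sets, but by sizes that ranged from 1.34-fold to 8.88-fold. On its brightest probe set by the mean of all 6 arrays, which stands for the gene in all counts here, the control arrays read 5.84, 5.67 and 6.01 and the epirubicin arrays 6.27, 6.22 and 6.28. The groups did not overlap, and the log2 fold change was 0.42 (SE 0.08, CI 0.22 to 0.61, limma adjusted p = 0.00976). That call was lost without control replicate 2, where the fold change was 0.33, and with a linear model without empirical Bayes moderation (adjusted p = 0.0509).

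The other 5 probe sets of TRIM22 showed larger differences. On the one with the largest change, the control arrays read 3.27, 3.09 and 3.65 and the epirubicin arrays 6.36, 6.42 and 6.69. All 3 control values lay under 3.86, the lower quartile of all values, and all 3 epirubicin values above the median of all values. This log2 fold change was 3.15 (SE 0.15, limma adjusted p = 5.76e-05 over all probe sets). The remaining 4 probe sets rose by 0.90, 1.45, 1.49 and 1.78 on the log2 scale, and on none of them did the groups overlap. As the mean of its probe sets TRIM22 rose by 1.53.

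Such a spread between probe sets of 1 gene was rare in these data. The highest and the lowest log2 fold change of TRIM22 lay 2.73 apart, and only 1 other gene of the 11527 with 2 or more probe sets had a range as wide. The median range was 0.13 over the 44 TRIM genes with 2 or more probe sets and 0.14 over all such genes, and the next widest TRIM gene, TRIM29, reached 0.45. Which transcripts each probe set of TRIM22 detects, and how much signal it takes from other sequences, was not tested.

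**Figure D2:**
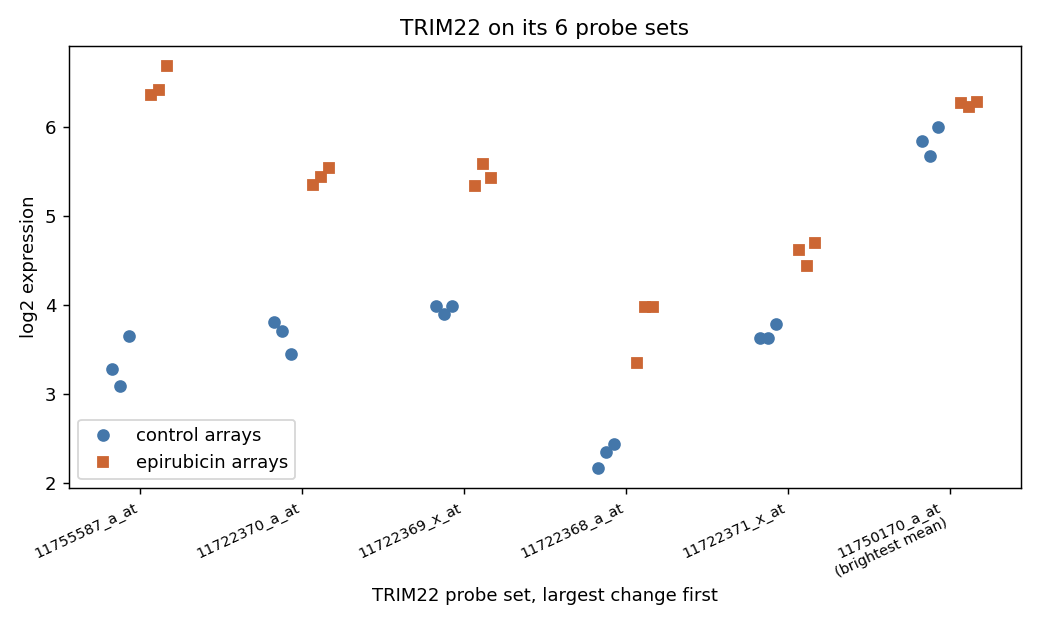
Log2 expression (vertical axis) of TRIM22 on each of its 6 probe sets (horizontal axis, ordered from the largest to the smallest change), with blue circles for the 3 control arrays and orange squares for the 3 epirubicin arrays. All 6 probe sets separate the groups, by 3.15 at the left end and by 0.42 on the brightest probe set at the right end.

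The nearest family neighbours of TRIM22 on chromosome 11 are its close relatives TRIM6, TRIM34 and TRIM5. TRIM6, which builds unanchored ubiquitin chains in interferon signalling, read 5.80, 5.60 and 5.72 in control and 5.62, 5.63 and 5.75 in epirubicin arrays; the groups overlapped (-0.04, CI -0.19 to 0.11). TRIM34 stood near the bottom of the scale, at 2.28 in control and 2.29 in epirubicin arrays (CI of the difference -0.19 to 0.20). The 2 probe sets that TRIM34 shares with the read-through gene TRIM6-TRIM34 were not called either, at -0.12 and 0.20. TRIM5, which restricts retroviruses by binding their capsids, read 4.56, 4.67 and 4.68 in control and 5.01, 4.96 and 4.96 in epirubicin arrays. Its groups did not overlap, and the difference of 0.34 (SE 0.04, limma adjusted p = 0.00173) stayed under the fold threshold of 1.3 at 1.27-fold. On 1 of the other 2 probe sets of TRIM5 it passed, at 0.39. TRIM5 lay below the median of all values in both groups, and its gene overlaps TRIM6 and TRIM34 in RefSeq.

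Interferon-linked members did not move as one. Of 11 such genes, TRIM22 included, 2 were higher (TRIM22 and TRIM38), 1 was lower (TRIM14) and 8 were called in neither direction, with a median of 0.01. The background was 4.36% higher and 2.14% lower over all genes, and 6.00% and 3.33% over expressed genes, which 9 of the 11 were. With so few members these counts are a description of the genes named. Without TRIM22, 8 were expressed, of which 1 was higher and 1 lower. The 23 expressed members outside the list held 1 higher and 1 lower, with a median of 0.06.

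TRIM38, a brake on Toll-like receptor and NF-kB signalling, read 7.29, 7.36 and 7.34 in control and 7.84, 7.84 and 7.83 in epirubicin arrays. The spread within each group was small beside the gap, and TRIM38 rose 1.42-fold (log2 0.51, SE 0.03, limma adjusted p = 0.000133). Its other probe set differed by 0.34, under the fold threshold, and the mean of both was 0.42 and still called. TRIM14, an adaptor of antiviral signalling at mitochondria that lacks a RING finger, went the other way. It read 6.48, 6.51 and 6.54 in control and 5.98, 6.00 and 5.83 in epirubicin arrays, a 1.48-fold fall (-0.57, SE 0.05, limma adjusted p = 0.000507). The call of TRIM14 rested on 1 of 4 probe sets. The other 3 also pointed downward, from -0.25 to -0.17, and the mean of all 4 was -0.30, short of the threshold.

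TRIM21, the cytosolic receptor for the Fc part of antibodies, which plasma cells make in bulk, differed by 0.25 (SE 0.04, limma adjusted p = 0.00682). Its 3 epirubicin arrays, at 7.31, 7.43 and 7.34, all lay above the control arrays at 7.08, 7.16 and 7.10, but the 1.19-fold difference was under the fold threshold. TRIM69, an antiviral ligase, differed by as much (0.25, SE 0.07, limma adjusted p = 0.0336). The remaining 4 expressed members of the list had intervals that spanned 0. TRIM25, which activates the RNA sensor RIG-I, differed by -0.03 (CI -0.10 to 0.05) and TRIM56, which acts on the STING pathway, by 0.01 (CI -0.09 to 0.11). TRIM26 differed by -0.02 (CI -0.10 to 0.07), and TRIM6 is given above. For these 4 a change of 1.3-fold in either direction lay outside the interval.

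**Figure D3:**
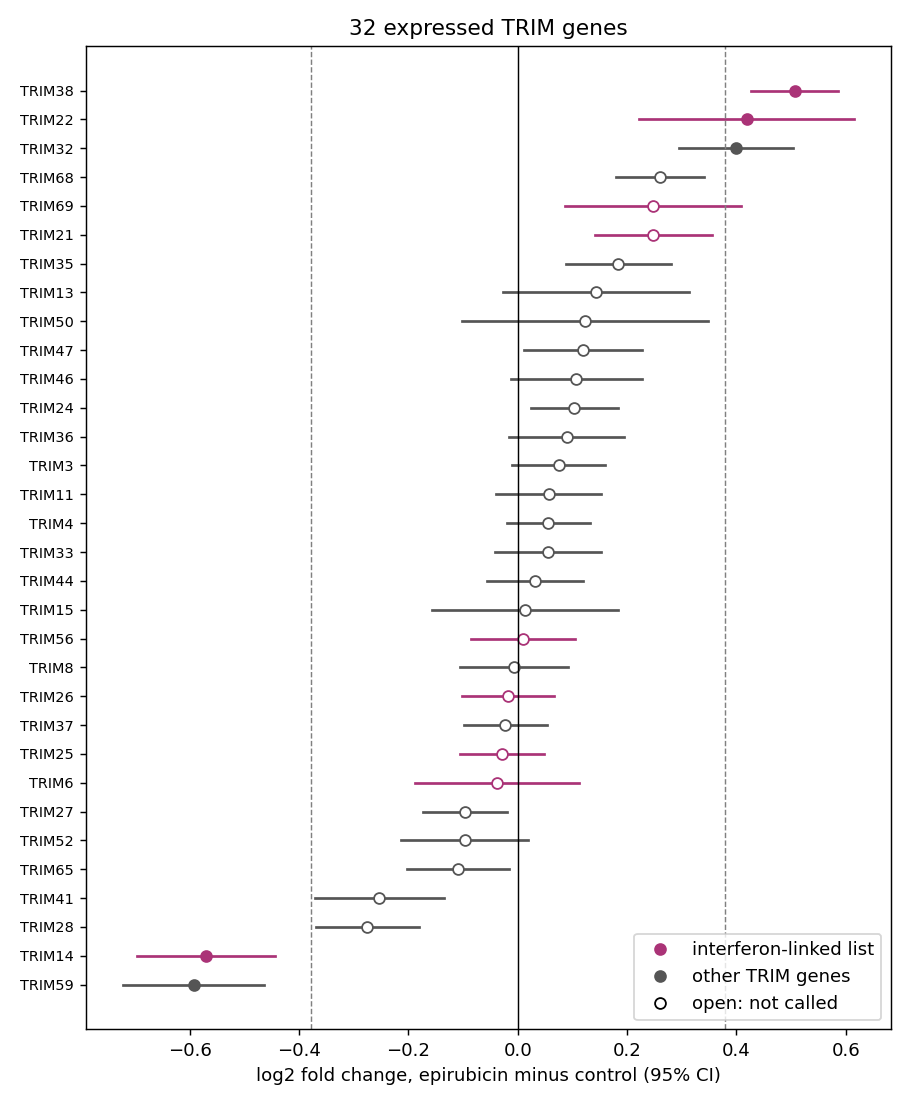
Log2 fold change, epirubicin minus control, with its 95% confidence interval (horizontal axis) for each of the 32 expressed TRIM genes (rows, sorted by fold change), interferon-linked members in purple and the others in grey. Filled points were called, open points were not, and dashed lines mark a 1.3-fold change; interferon-linked genes stand at both ends, with TRIM38 at 0.51 and TRIM14 at -0.57.

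The promoters of the members were searched for the core of the interferon-stimulated response element, GAAA followed by any 2 bases and a further GAAA on either strand, in RefSeq's windows of GRCh38.p14 from 250 bases before to 50 after the gene start. The core was present in 8 of the 46 members with an entry (17.4%) and in 3.65% of 27305 promoters of all genes. Whether any match is a working element was not tested. Stretches from 6 of the 8 are shown, taken from genes that rose, fell or were not called. Capitals mark the core and 25 bases are given on each side, or fewer where the window ends.
TRIM2: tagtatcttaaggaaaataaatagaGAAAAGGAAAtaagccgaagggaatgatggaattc
TRIM14: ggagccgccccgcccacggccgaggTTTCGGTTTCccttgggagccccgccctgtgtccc
TRIM21: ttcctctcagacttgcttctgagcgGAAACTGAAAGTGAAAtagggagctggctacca
TRIM5: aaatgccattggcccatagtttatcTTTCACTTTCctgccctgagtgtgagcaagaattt
TRIM34: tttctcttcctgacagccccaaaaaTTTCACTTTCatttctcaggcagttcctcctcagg
TRIM69: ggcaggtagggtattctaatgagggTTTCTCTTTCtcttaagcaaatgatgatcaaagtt
The stretches lie at chr4:153151921-153151980 (plus strand) for TRIM2, chr9:98119214-98119273 (minus) for TRIM14 and chr11:4393653-4393710 (minus) for TRIM21. Those of TRIM5, TRIM34 and TRIM69 lie at chr11:5685067-5685126 (minus), chr11:5624886-5624945 (plus) and chr15:44736441-44736500 (plus). TRIM5 and TRIM34 carry the same 10 letters in their cores, and TRIM21 holds 2 cores that share 4 bases. The remaining 2 were TRIM26, also with 2 cores, and TRIM44. TRIM22 was not among the members with an entry.

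Of these 8 genes, TRIM2 was higher, TRIM14 was lower and 6 were not called. Beside 4.36% higher and 2.14% lower over all genes, this count describes the genes named. TRIM38 rose without a match to these letters in its window, and so did TRIM32. A p53 half-site, searched by its consensus on both strands, was found in 6 of the 46 promoters and in 6.54% of all promoters, and TRIM21 was the only expressed member among the 6. The CHR element of cell cycle genes, TTTGAA on either strand, was found in 5 of 46 and in 15.4% of all promoters. TRIM59 was not among the 5, and TRIM2 was. The part of these motifs in the changes was not tested. The GAS motif, TTCNNNGAA, was also searched and found in 5 of 46 and in 7.88% of all promoters, TRIM2 included.

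TRIM2 showed the largest change of the family when each gene was read by its brightest probe set. As means of probe sets TRIM22 changed more, by 1.53 against 1.29, and likewise on the most variable probe set, by 3.15 against 1.46. TRIM2 encodes a ligase with a filamin domain and NHL repeats, known from neurons, where it acts on neurofilament and on the proapoptotic protein BIM. It read 4.17, 4.54 and 4.56 in control and 5.59, 5.70 and 5.61 in epirubicin arrays, and rose 2.31-fold (log2 1.21, SE 0.11, limma adjusted p = 0.000433). The lowest control array stood apart from the other two, yet no control array came within 1 log2 unit of an epirubicin array. All 3 probe sets were called, at 1.20, 1.21 and 1.46. The epirubicin level was just above the median of all values and the mean over 6 arrays below it, so TRIM2 was not counted among the expressed members.

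TRIM32, another ligase with NHL repeats and the gene of a limb-girdle muscular dystrophy, has been described both as a p53 target and as a ligase for p53. It read 7.25, 7.28 and 7.27 in control and 7.64, 7.75 and 7.61 in epirubicin arrays, with no overlap. It rose 1.32-fold (log2 0.40, SE 0.04, limma adjusted p = 0.000953), close to the fold threshold, and came under it without epirubicin replicate 2 (0.36), with arrays centred on their medians (0.37) and as the mean of 3 probe sets (0.34). Of the 4 measured members that share this type of tail, 2 were higher, TRIM2 and TRIM32, and 0 lower. With 4 genes, beside 4.36% higher and 2.14% lower over all genes, this count describes the genes named. The gene of TRIM32 lies within that of ASTN2, which encodes a neuronal membrane protein and was named after its value was seen; ASTN2 rose by 0.62 (SE 0.07, limma adjusted p = 0.000883).

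TRIM59, a membrane-anchored protein reported to promote the degradation of p53, was lower. It read 7.44, 7.56 and 7.57 in control and 7.01, 6.90 and 6.88 in epirubicin arrays, a 1.51-fold fall (-0.59, SE 0.05, limma adjusted p = 0.000494). Both of its probe sets were called, and every control array lay above every epirubicin array. Its neighbours on chromosome 3, named after their values were seen, were not called. SMC4, a condensin subunit needed for mitotic chromosomes, differed by -0.13 (SE 0.03), and IFT80, a component of cilia, by 0.31 (SE 0.04). In RefSeq the read-through gene TRIM59-IFT80 overlaps TRIM59, and whether the probe sets of TRIM59 also read it was not tested.

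The other expressed members reported as p53 targets or as acting on p53 or MDM2 had intervals that stayed within a 1.3-fold change. Among them TRIM28, given below, differed by -0.28 with groups that did not overlap. TRIM24, which targets p53 for degradation, read 8.80, 8.75 and 8.79 in control and 8.90, 8.85 and 8.91 in epirubicin arrays (0.10, CI 0.02 to 0.18, limma adjusted p = 0.0594). TRIM8, reported to stabilize p53, differed by -0.01 (CI -0.11 to 0.09), and TRIM13, a ligase of the endoplasmic reticulum, by 0.14 (CI -0.03 to 0.31). TRIM29, which lacks a RING finger and binds p53, was not expressed by the rule used and was named after its value was seen. It read 3.06, 3.52 and 3.12 in control and 3.83, 3.48 and 3.54 in epirubicin arrays, values that overlapped (0.38, CI 0.04 to 0.73, limma adjusted p = 0.0943). TRIM29 was called higher without control replicate 2 and with a trended, robust variance prior. Of the 4 genes listed as p53 targets, 2 were higher, TRIM22 and TRIM32, and 0 were lower. Both calls were lost under some other settings. Of the 7 measured genes listed as acting on p53 or MDM2, 6 of them expressed, 1 was higher and 1 lower. Among all expressed genes 6.00% were higher and 3.33% lower, and among all genes 4.36% and 2.14%. With so few members these counts describe the genes named. By the same rules 16 of 17 reference p53 targets rose, and the list's median was 1.27; those with the largest change were PHLDA3, a repressor of AKT (2.15, SE 0.06), and PMAIP1, which encodes NOXA (1.98, SE 0.04). The change of TRIM22 lay below that median on its brightest probe set and above it on 4 of the others.

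TRIM28, also called KAP1, is the corepressor that KRAB zinc finger proteins use to silence chromatin, and a substrate of the kinase ATM at DNA breaks. It read 9.03, 9.03 and 9.07 in control and 8.71, 8.79 and 8.81 in epirubicin arrays. The groups did not overlap, and the difference of -0.28 (SE 0.04, limma adjusted p = 0.00272), or 1.21-fold, was under the fold threshold. Its relative TRIM33, which restrains SMAD signalling, differed by 0.06 (CI -0.04 to 0.15). Of 10 partners of TRIM28 in silencing, 9 were expressed and 0 were called. In 8 the log2 fold change was below 0, and 7 had an adjusted p under 0.05. Among all 9935 expressed genes 5122 lay above 0, and 44.1% had an adjusted p under 0.05. A common fall of these partners was not tested. The heterochromatin protein genes CBX3 (-0.33, SE 0.04) and CBX1 (-0.28, SE 0.03) lay lowest and MORC3 (0.29, SE 0.04) highest; all 3 were named after their values were seen.

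Among the remaining expressed members, TRIM41, a ligase of the SPRY class, differed by -0.25 (SE 0.05, limma adjusted p = 0.00935) and TRIM68, a coactivator of the androgen receptor, by 0.26 (SE 0.03, limma adjusted p = 0.00177). Neither reached the fold threshold, although the groups did not overlap in either. For TRIM68 the other 2 probe sets, at 0.01 and 0.05, did not show this difference. TRIM44, which lacks a RING finger, differed by 0.03 (CI -0.06 to 0.12). The 3 epirubicin arrays lay above the 3 control arrays in 13 of the 32 expressed members and below them in 6, where 31.6% and 32.0% of all expressed genes did so. Over all 60 members they lay above in 19 and below in 6, beside 23.8% and 20.1% of all genes.

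Several members were read only by probe sets that they share with other genes. TRIM39, a ligase reported to act on p53, had 4 such probe sets, shared with the read-through gene TRIM39-RPP21 and in 1 case also with RPP21, with log2 fold changes from -0.14 to 0.14 and none called. TRIM16 and its copy TRIM16L shared 2 probe sets, at 0.12 and 0.31, also not called. In all 13 symbols occurred only on shared probe sets, and 0 of the 13 shared probe sets with a TRIM gene were called. Over the 159 probe sets of the 60 members, 13 were called higher, 6 of them of TRIM22, and 3 lower. The matching shares over all probe sets, and over all genes for the count that follows, were not taken, so both are descriptions. When any called probe set was enough to count its gene, 6 members were higher and 2 lower; TRIM5 and TRIM45, a repressor of MAP kinase signalling that was named after its value was seen, were added.

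By class of tail, the 4 members with NHL repeats held 2 of the 4 higher calls of the family, as given above. Of these, TRIM32 lay close to the fold threshold, and so few genes give no result about the class. Of 30 measured genes listed under class C-IV, the SPRY class that holds most antiviral members, 2 rose and 0 fell, and the median was 0.06. That list leaves out TRIM14, which fell and was filed with members that lack a RING finger or are unclassified. It also leaves out the 6 genes of class C-I, whose tail includes a SPRY domain, of which 0 were higher and 1 was lower. The shares over all genes were 4.36% higher and 2.14% lower, and these class counts are descriptions. The 4 measured members listed under classes C-II and C-III, with COS boxes and only in part muscle-type, had 0 calls and 0 were expressed. Of the 4 tripartite motif genes that go by other symbols, MID1, a microtubule-bound ligase mutated in Opitz syndrome, was lower (-0.41, SE 0.05, limma adjusted p = 0.00141; 2 of 5 probe sets, and -0.27 as their mean, not called). PML, which builds nuclear bodies and is induced by interferon, was not called (0.21, SE 0.06, limma adjusted p = 0.0412).

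The partners of the family were measured too. Of 14 E2 enzymes listed as used by RING ligases, 9 were measured, all of them expressed. Beside 6.00% higher and 3.33% lower over all expressed genes, 0 of the 9 were called, with a median of -0.14. In 8 of them the 3 epirubicin arrays lay below the 3 control arrays, where 32.0% of all expressed genes did so, among them UBE2N (-0.15, SE 0.05), which builds the chains used by several TRIM proteins in signalling. UBE2L6, the interferon-induced E2 enzyme of the ubiquitin-like protein ISG15, was the only one above 0 (0.19, SE 0.04, limma adjusted p = 0.00897). UBE2E1 differed by -0.15 on its brightest probe set, but 1 of its 2 probe sets was called lower, and so was their mean (-0.38, limma adjusted p = 0.000769). These enzymes were named after their values were seen.

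In interferon signalling, 2 of 14 measured genes, 12 of them expressed, were higher and 0 lower. The shares were 4.36% and 2.14% of all genes, and 6.00% and 3.33% of expressed genes. The 2 higher genes were IRF7, the transcription factor that amplifies interferon production (0.66, SE 0.04, limma adjusted p = 6.02e-05), and SOCS1, an inhibitor of JAK kinases (0.78, SE 0.05, 1 of 2 probe sets). The interferon genes themselves gave 0 calls among 6 measured, all below the median of all values; IFNB1, chosen after its value was seen, stood at 2.70 in control and 2.85 in epirubicin arrays. Beside 4.36% higher and 2.14% lower over all genes, 5 of 19 reference targets of interferon rose and 0 fell, with a median of 0.17. Those with the largest change were MX2, an antiviral GTPase (0.60, SE 0.06), and IFIH1, which encodes the RNA sensor MDA5 (0.55, SE 0.04; 1 of 2 probe sets, and 0.36 as their mean, not called).

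**Figure D4:**
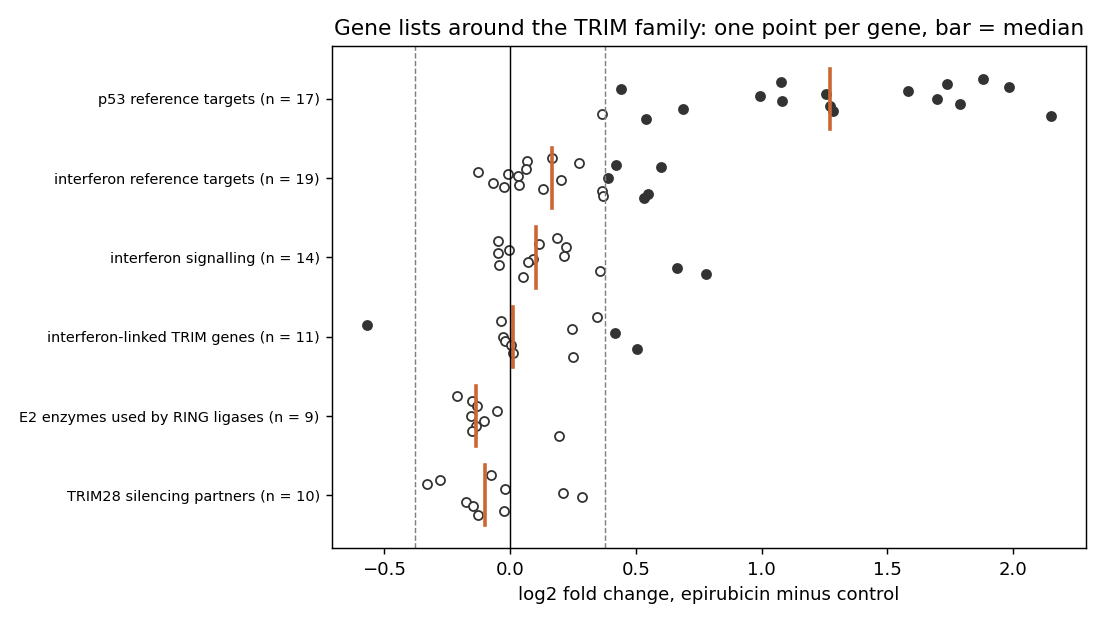
Log2 fold change, epirubicin minus control (horizontal axis), of every measured gene in 6 lists (rows), with 1 point per gene, filled where it was called, an orange bar at the list's median, and dashed lines at a 1.3-fold change. Reference p53 targets center on 1.27, reference interferon targets on 0.17 and interferon-linked TRIM genes on 0.01, and the E2 enzymes lie mostly below 0, with a median of -0.14.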

How the data were processed

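The authors' deposited log2 expression values cover 47481 probe sets on each of 6 arrays. That they are log2 was inferred from their range (1.41 to 13.73). The affy package is the only tool in the submitters' processing notes; how background, normalization and probe summary were handled is not given in the sources used. If arrays were normalized, changes in total RNA are not visible, and differences are relative. Without detection calls, dim values have no known floor.

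Names came from the platform annotation, in which 43976 probe sets named 1 gene, 1558 several and 1947 none. Symbols were updated by Entrez number against RefSeq's GRCh38.p14 table (43954 matched). Each of 17534 genes was represented by its brightest probe set, by the mean of all 6 arrays. The test was limma 3.58.1 (R 4.3.3) with lmFit and eBayes and no covariate, Benjamini-Hochberg adjusted over all genes; probe sets were fitted likewise over all 47481. The thresholds are those of the series' design text. The fit was tested on simulated data. SE and 95% confidence intervals (CI) are limma's.

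The members and lists were chosen with earlier results of these data known. Genes were named by a rule: every member called; expressed members of the interferon and p53 lists; TRIM5, TRIM6, TRIM21, TRIM22, TRIM34, TRIM24, TRIM28 and TRIM33; the 5 expressed members with the largest change among those not called; the 5 brightest; and up to 2 called genes per other list and direction. Alternatives varied the probe set, normalization, variance prior, filter, replicate block and arrays used. The number of arrays limits the precision.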

Additional observations from a re-analysis of the deposited data

How the results depend on the processing

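Of 326 refits of the 22 named members under other settings, 319 left the call as it was, 6 ended it and 1 made it, and 0 turned the direction of a called gene. Most of the 22 were not called, and a refit that left such a gene uncalled counted as unchanged, even with a turned sign. The 6 losses fell on called genes: 2 of 15 refits of TRIM22, 3 of 15 of TRIM32 and 1 of 15 of TRIM14. TRIM2, TRIM38 and TRIM59 were called under every alternative in which they were tested. Without 1 array at a time, TRIM genes higher numbered 3 to 4 and lower 2 to 2; without control replicate 2, TRIM29 took the place of TRIM22. TRIM29, which is outside the 22, was also added with a trended, robust variance prior. At any fold, 9 TRIM genes were higher and 4 lower, and 2744 and 2362 of all genes. As means of probe sets, 1 TRIM gene was lower. With the most variable probe set of each gene, 684 of all genes were lower instead of 376, TRIM22 rose by 3.15 and TRIM5 passed at 0.39. Arrays with the same replicate number did not deviate together (correlations of -0.06, 0.00 and -0.01 across genes), so the numbers were not taken as pairs; with the replicate block the counts were again 4 and 2, of the same genes. Counting genes called on 1 or more probe sets, chosen after seeing the data as were the separate probe sets of TRIM22, gave 6 and 2. No such count was made over all genes. With the lower quartile of all values as the limit, 46 members counted as expressed, and 33 by the mean of the higher group.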
